A study of Mus musculus with 46 samples.

Results

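The comparison set hearts of adult mice that lacked cGas against hearts that carried it, where Lmna was floxed on 1 allele only. The members were chosen by genotype, kit and time, which gave 10 of the 46 samples of the study: 4 hearts labelled Lmna F/+; cGas null/null and 6 labelled Lmna F/+; cGas +/+. Each heart gave 1 library of 3′ ends of messenger RNA (QuantSeq, a kit that reads near the polyadenylation site, so that counts do not scale with transcript length). Every mouse also carried Myh6MCM Tg/0, a transgene in which the cardiomyocyte promoter Myh6 drives a tamoxifen-inducible Cre recombinase, and every mouse received tamoxifen at 6 to 8 weeks of age, on 4 consecutive days, and was taken 2 weeks later. The F/+ hearts are thus the controls of a cardiomyocyte-restricted Lmna deletion: 1 Lmna allele could be recombined in cardiomyocytes, and the other stayed intact. The cGas null allele is carried by every cell of the animal, as far as the genotype labels say. Another 10 QuantSeq hearts with the same treatment, 4 labelled Lmna F/F; cGas null/null and 6 labelled Lmna F/F; cGas +/+, shared the fit and gave the same contrast on the background of the full deletion. The labels do not say whether hearts came from separate litters, and p-values therefore describe only the scatter among these libraries, part of which may be technical.

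cGAS, the product of Cgas, is an enzyme that binds double-stranded DNA outside the nucleus and makes the second messenger cGAMP. cGAMP activates STING (Sting1), an adaptor of the endoplasmic reticulum, which recruits the kinase TBK1 and leads, through the factors IRF3 and NF-kB, to transcription of type I interferon and inflammatory genes. Interferon then acts through its receptor to induce a large set of antiviral genes, and a low tonic level of this pathway keeps many of them above 0 in unchallenged tissue. In tissues such as the heart, macrophages are among the cells that use it.

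The groups differed in more than cGas. All 4 cGas null F/+ hearts were male, against 2 male (hearts 1 and 3) and 4 female (hearts 2, 4, 5 and 6) among the 6 cGas +/+ F/+ hearts, and sex was a term of the fit of all 20 libraries unless said otherwise. Xist and Ddx3y matched the labelled sex in 20 of 20 libraries. The number that ends each sample title, whose meaning the labels do not give, fell into a low range (80370 to 80393, 9 libraries) and a high range (80597 to 81195, 11 libraries), and 1 of 4 cGas null but 4 of 6 cGas +/+ F/+ hearts had a low number. The split was prompted by atrial transcripts. Sln, the regulator sarcolipin of atrial myocytes, had 0.325 to 1.03 normalised CPM (CPM, counts scaled to a common library size, after TMM normalisation) in low-number libraries and 16.4 to 536 in high-number ones, while the natriuretic peptide gene Nppa overlapped (109 to 330 against 183 to 2200). The split was chosen after these values were seen. With the range added to the fit, 1254 of 14812 tested genes (8.47%) differed between the ranges (edgeR, Benjamini-Hochberg adjusted p under 0.05), against 24 (0.162%) between the sexes in the fit without it. Both male cGas +/+ F/+ hearts had low numbers, and both high-number cGas +/+ F/+ hearts were female. Total counts were 22099181 to 27136038 in the 10 F/+ libraries, with 17.8% to 38.4% of counts on messenger RNAs of the mitochondrial genome, and the cardiomyocyte gene Tnnt2 stood at 4970 to 9430 normalised CPM. Which of sex, title number and cGas a given difference follows was not tested beyond the fits given beside each result.

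Cgas itself was lower in the cGas null hearts. It was measured at 0.686, 0.497, 0.819 and 0.258 normalised CPM in null hearts 1 to 4, and at 1.23, 0.981, 0.851, 2.39, 1.05 and 2.19 in +/+ hearts 1 to 6. The groups did not overlap, but null heart 3 and +/+ heart 3 lay close together, and reads remained in every null heart. The means were 0.565 ± 0.243 (SD, n = 4) and 1.45 ± 0.666 (SD, n = 6), a difference of -0.884 CPM (two-sided exact permutation p = 0.0286; the smallest this design allows is 0.00476). Summed over the group, 54 counts in null and 200 in +/+ libraries gave a ratio of 0.374 (95% exact interval 0.272 to 0.508, counting error only). The fitted log2 fold change was -1.54 ± 0.40 (SE), which did not pass the adjustment over all genes (edgeR adjusted p = 0.993). Leaving out any 1 null heart gave exact permutation p from 0.0595 to 0.0833. Against the 2 male +/+ hearts alone the difference was -0.475 CPM (exact permutation p = 0.133, where 0.0667 is the smallest possible). The reads come from the 3′ end, and the labels do not say which part of the gene the null allele lacks, so residual reads say nothing about the protein. Lmna, which both groups carried as F/+, was at 23.7 ± 2.54 CPM in null (SD, n = 4) and 22 ± 3.01 in +/+ hearts (SD, n = 6), a log2 fold change of 0.01 ± 0.20 whose sign changed with the fit.

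**Figure D1:**
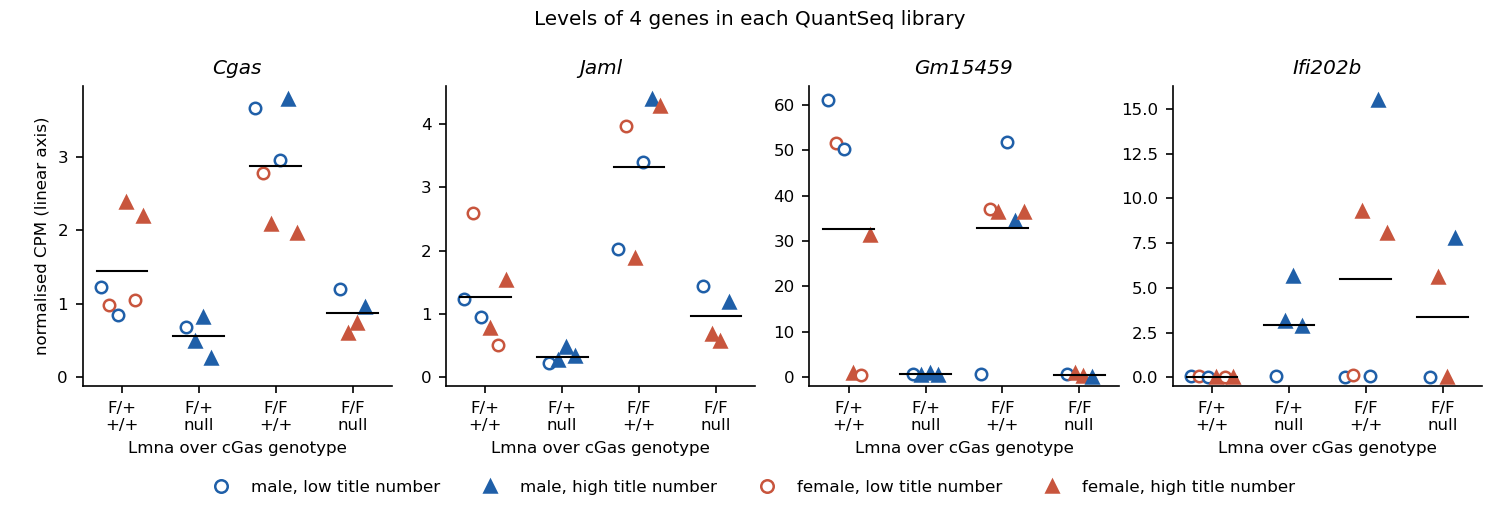
Normalised CPM (linear axis) of Cgas, Jaml, Gm15459 and Ifi202b in each QuantSeq library, by Lmna genotype (upper label) and cGas genotype (lower label), with 4 null and 6 +/+ hearts for each Lmna genotype. Each point is 1 heart, blue male and red female, open circles for low and filled triangles for high title numbers, and bars mark group means. Cgas and Jaml of null hearts lie below +/+ hearts within each Lmna genotype, Gm15459 is near 0 in all null hearts and in 3 +/+ hearts, and Ifi202b is above 1 CPM in 3 of 4 null and 0 of 6 +/+ F/+ hearts.

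Across the transcriptome, loss of cGas left no gene past the threshold in F/+ hearts. Of 14812 tested genes, 0 (0%) had an edgeR adjusted p under 0.05, and the smallest adjusted p was 0.68, shared by Gm15459, Gm4803, the sodium/myo-inositol cotransporter gene Slc5a3 and the small GTPase gene Rasef, 4 genes named after their values were seen. Slc5a3 was at 4.98, 5.05, 4.18 and 5.71 CPM in null and 2.21, 3.80, 2.60, 4.29, 2.81 and 5.01 in +/+ hearts, with overlap through +/+ hearts 4 and 6 (log2 fold change 0.90 ± 0.20, and 0.11 in F/F hearts). At an unadjusted edgeR p under 0.05 there were 616 genes (4.16%), 310 higher (2.09%) and 306 lower (2.07%). By chance 741 are expected at that p, and leaving out null heart 1 gave 1416. DESeq2 called 3 genes and limma-voom 0. Male libraries alone gave 1 gene, Gm15459 (0.00664% of 15054). In the same fit of the same libraries, Lmna F/F against F/+ in cGas +/+ hearts gave 686 genes (4.63%). The values of null hearts lay wholly above or below those of +/+ hearts for 116 genes (0.783%), 47 higher (0.317%) and 69 lower (0.466%). A split on 1 given side makes up a share of 0.00476 of all orders of 4 and 6 hearts. These counts take no account of sex: Xist is among the 69, with a log2 fold change of 0.67 once sex is a term.

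The size of change that could have been missed was bounded by intervals from the fit of all 20 libraries, not the 10 F/+ hearts alone. That fit shares the spread with the F/F hearts and assumes the same sex effect in both Lmna genotypes. It has no term for title number, and within F/+ hearts only 2 male +/+ hearts separate sex from cGas. The 95% interval of the fold change lay within 2-fold in either direction for 10620 genes (71.7%) and within 1.5-fold for 4998 (33.7%). Precision was lowest for weakly expressed genes: 96.3% of 4281 genes with 10 to 100 mean CPM were bounded within 2-fold, and 95.6% of 633 genes above 100 CPM, against 12.5% of 3182 genes below 1 CPM. Between 1 and 10 CPM, 81.8% of 6716 genes were bounded within 2-fold. Changes of 2-fold could therefore have been missed in most genes below 1 CPM. Of 28 tested cytokines and chemokines, 6 were bounded within 2-fold. The median absolute log2 fold change was 0.17, and the median over all tested genes was 0.015.

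**Figure D2:**
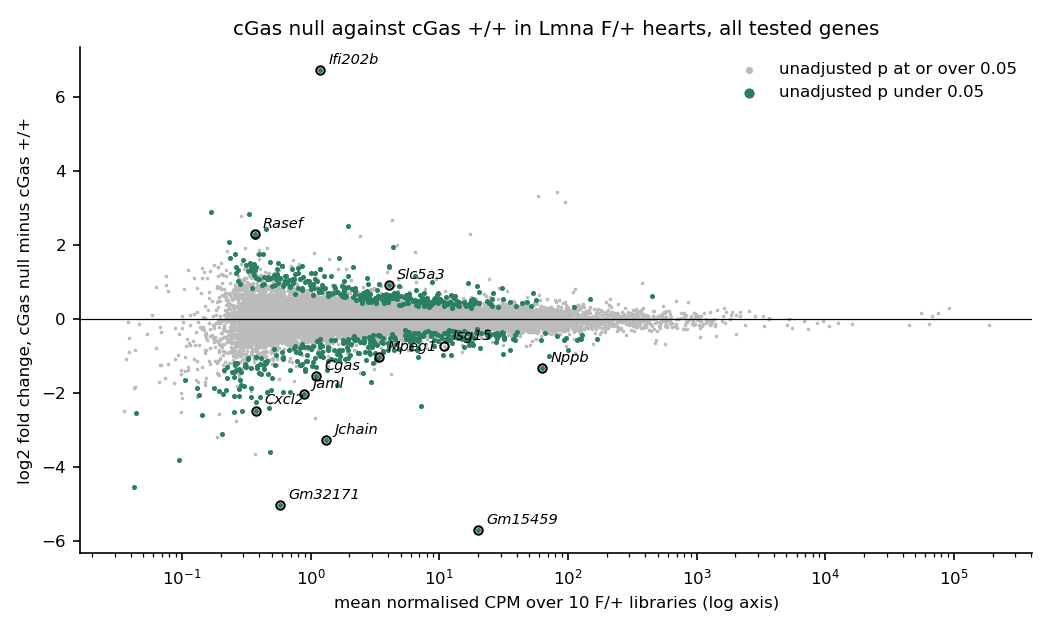
Log2 fold change between cGas null and cGas +/+ F/+ hearts against the mean normalised CPM (log axis) of each of 14812 tested genes, with genes at an unadjusted p under 0.05 in green and named genes circled. The spread narrows as the level rises, and none of the 14812 genes passed an adjusted p of 0.05.

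When the cGas effects in F/+ and F/F hearts were averaged, 3 genes (0.0203%) passed, all lower in cGas null hearts, and 1385 (9.35%) had an unadjusted p under 0.05. They were Cgas (log2 fold change -1.63 ± 0.26, edgeR adjusted p = 0.0164), Jaml (-1.91 ± 0.31, adjusted p = 0.0175) and Gm15459 (-5.90 ± 0.84, adjusted p = 0.00556). Limma-voom called 0, and between 1 and 7 genes passed when single libraries were left out: 1 without F/+ null heart 2, F/F null heart 2, F/F null heart 3 or F/F +/+ heart 5, 5 without F/F +/+ heart 4, and 7 without F/+ null heart 1.

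Jaml encodes a junctional adhesion molecule of leukocytes. In F/+ hearts it was at 0.229, 0.268, 0.474 and 0.332 CPM in null and 1.23, 2.60, 0.946, 0.784, 0.504 and 1.54 in +/+ hearts. Every null heart was below every +/+ heart, with null heart 3 and +/+ heart 5 nearest to each other. In F/F hearts it was at 0.576 to 1.44 CPM in null and 1.89 to 4.39 in +/+ hearts, again without overlap. Cgas and Jaml were the 2 genes whose groups did not overlap in the same direction in both Lmna genotypes, out of 116 such genes in F/+ and 158 (1.07%) in F/F hearts. Among male hearts alone the log2 fold change of Jaml was -1.73 ± 0.42.

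Gm15459, a predicted gene model on chromosome 5, was switched between 2 levels. It stood at 0.686, 0.497, 1.03 and 0.590 CPM in the F/+ null hearts, at 61.1, 51.7, 50.3 and 31.4 in +/+ hearts 1, 2, 3 and 6, and at 0.908 and 0.420 in +/+ hearts 4 and 5. Thus 4 of 6 F/+ and 5 of 6 F/F hearts with cGas exceeded 10 CPM, against 0 of 4 null hearts of either Lmna genotype. The F/F +/+ heart at the low level was heart 1, at 0.744 CPM. Gm32171, a predicted gene on chromosome 9 and so on the chromosome of Cgas, had the same on and off hearts in F/+: 1.23, 1.45, 1.75 and 1.24 CPM in +/+ hearts 1, 2, 3 and 6, and 0 in hearts 4 and 5. It had 3 counts in all null libraries together and 125 in +/+ libraries, 30.1 times fewer (95% exact interval 10.1 to 148, counting error only). Neither gene passed in F/+ hearts alone (edgeR adjusted p = 0.68 for Gm15459 and 0.993 for Gm32171), and both were chosen for description after their values were seen.

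Ifi202b went the other way. It belongs to the Ifi200 family of interferon-inducible DNA-binding proteins, whose members are similar enough that reads may be shared between them. Null hearts 1 to 4 had 0.0914, 3.17, 5.64 and 2.88 CPM, and the 6 +/+ hearts 0 to 0.0492. The ratio of summed counts, 294 against 3, was 136 (95% exact interval 46 to 662, counting error only). In F/F hearts the gene was above 1 CPM in 2 of 4 null and 3 of 6 +/+ hearts, from 0 to 15.5 CPM, and the log2 fold change was -0.70 ± 1.07. All low-number libraries had at most 0.144 CPM. The difference between the Lmna genotypes had an unadjusted edgeR p of 0.00577 and did not pass the adjustment, where 0 of 14812 genes (0%) did; 215 (1.45%) were at an unadjusted p under 0.05.

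None of the other genes of cytosolic DNA sensing passed. Of 28 genes listed without Cgas, 27 were tested, 0 were called, 18 lay below 0 and 9 above, and the median log2 fold change was -0.12 against 0.015 for all genes. Sting1, the receptor of cGAMP, was at 3.34, 2.22, 2.46 and 2.91 CPM in null and 4.13, 2.56, 2.22, 2.72, 2.35 and 2.53 in +/+ hearts. The groups overlapped, and the means were 2.73 ± 0.497 and 2.75 ± 0.697 (SD, n = 4 and 6). The fitted log2 fold change of Sting1, with sex as a term, was -0.37 ± 0.23 in F/+ hearts, -0.22 ± 0.30 in males alone and -0.46 ± 0.19 in F/F hearts (edgeR adjusted p = 0.864 in F/F). Ifi204, a DNA sensor of the Ifi200 family, had a log2 fold change of -0.68 ± 0.34 and Zbp1, which binds nucleic acids in the Z conformation, of -0.91 ± 0.53 (edgeR adjusted p = 0.993 for both). In male hearts alone these were -0.02 ± 0.38 and -0.40 ± 0.66, and the list median was -0.01. For 21 of 27 members the 95% interval lay within 2-fold.

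Most interferon-stimulated genes had a fitted fold change below 0, and none passed. Of 59 listed genes 57 were tested; 0 were called, 52 lay below 0 and 5 above, against 47.6% below 0 over all tested genes. The median log2 fold change was -0.33. A total of 5 members (Epsti1, Oas3, Mx1, Parp9 and Tor3a) had an unadjusted p under 0.05 on the lower side, beside 2.07% of all genes lower at that p, and 1 of 57 did not overlap on the lower side, beside 0.466%. The mean log2(CPM + 1) of the list was 2.77, 2.32, 2.51 and 2.17 in null hearts 1 to 4 and 2.66, 2.82, 2.42, 2.95, 2.63 and 2.68 in +/+ hearts 1 to 6. Null heart 1, the only null heart with a low title number, and null heart 3 lay within the +/+ range, while null hearts 2 and 4 lay below every +/+ heart. With males alone (4 against 2) 33 of 57 members lay below 0 and the median was -0.11. F/+ libraries fitted alone gave -0.10, which is not a second check. All null F/+ hearts are male, so with sex as a term that fit sets them against the same 2 male +/+ hearts. With the title-number range as a term the median was -0.34, and the fits within the low and within the high range gave 0.16 (1 null heart against 4, where the lone heart is assumed to vary like the others) and -1.02 (3 against 2).

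The sequences below show matches to the core of the interferon-stimulated response element at 2 of these genes and at the chemokine gene Cxcl10. They are RefSeq promoters, from 250 bases before to 50 after the gene start, in GRCm38.p6 (not the build of the count table), each printed 5′ to 3′ on its gene's strand: Isg15 at chr4:156200769-156201068 (minus strand), Ifit1 at chr19:34640639-34640938 (plus strand) and Cxcl10 at chr5:92348840-92349139 (minus strand). Capitals mark matches to GAAA, any 2 bases and GAAA again, or to its reverse complement, so that both strands were searched. Isg15 has 3 overlapping matches, Ifit1 has 2 and Cxcl10 has 1.
Isg15: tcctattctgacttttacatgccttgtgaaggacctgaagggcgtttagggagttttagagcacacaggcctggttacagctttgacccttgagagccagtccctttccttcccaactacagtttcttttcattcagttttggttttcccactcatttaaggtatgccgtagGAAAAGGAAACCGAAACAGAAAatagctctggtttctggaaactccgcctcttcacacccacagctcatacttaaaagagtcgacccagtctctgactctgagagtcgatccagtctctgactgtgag
Ifit1: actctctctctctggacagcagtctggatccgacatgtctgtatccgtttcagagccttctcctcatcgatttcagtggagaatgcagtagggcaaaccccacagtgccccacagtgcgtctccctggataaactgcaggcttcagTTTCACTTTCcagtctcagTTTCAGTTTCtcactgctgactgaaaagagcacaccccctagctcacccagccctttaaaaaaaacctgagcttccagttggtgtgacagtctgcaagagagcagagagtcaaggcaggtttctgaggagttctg
Cxcl10: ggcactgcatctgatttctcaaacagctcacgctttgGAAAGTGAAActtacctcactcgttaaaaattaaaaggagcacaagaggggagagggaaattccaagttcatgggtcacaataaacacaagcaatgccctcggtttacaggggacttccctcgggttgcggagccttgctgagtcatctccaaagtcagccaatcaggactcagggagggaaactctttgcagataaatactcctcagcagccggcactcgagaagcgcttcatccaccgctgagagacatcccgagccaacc
The match occurred in 1131 of 32851 promoters of this length (3.44%; 1 chromosome was not searched), in 410 of the 10651 tested genes with a promoter in the table (3.85%), and in 21 of the 43 interferon-stimulated genes found there (48.8%). Of the 410 genes with a match 0 were called and 245 (59.8%) lay below 0, against 47.9% of the 10241 genes without one. The median log2 fold changes were -0.06 and 0.01, and -0.01 and 0.03 in male hearts alone. With the interferon-stimulated genes left out, 58.1% of 389 genes with a match lay below 0 (median -0.05, and -0.01 in male hearts alone). Among interferon-stimulated genes alone, 19 of 21 with a match and 19 of 22 without one lay below 0. Their medians were -0.40 and -0.23, and -0.07 and -0.10 in male hearts alone. The promoters of Irf7 and Epsti1 had 0 matches and are not printed. A match is a description of the letters and not a bound site.

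Isg15, the ubiquitin-like modifier whose promoter is shown first, was at 13.4, 5.31, 9.18 and 3.80 CPM in null and 15.5, 22.4, 9.64, 10.4, 10.8 and 8.61 in +/+ hearts. The ranges overlapped through null hearts 1 and 3, and the log2 fold change was -0.74 ± 0.38. Ifit1, a sensor of viral RNA ends, was at 9.78, 4.09, 7.80 and 3.24 CPM in null and 7.82, 4.35, 4.25, 18.5, 11.3 and 9.34 in +/+ hearts. Its groups overlapped throughout, and its log2 fold change of -0.53 ± 0.46 became 0.04 ± 0.47 in males alone. Cxcl10, a chemokine for T cells, had -1.25 ± 0.66, and 0.16 ± 0.69 in males alone. Irf7, a transcription factor of the response, had -0.45 ± 0.37, and -0.06 ± 0.45 in males alone. Usp18, which dampens signalling at the interferon receptor, had -0.69 ± 0.44, and -0.29 ± 0.53 in males alone. All 5 had an edgeR adjusted p of 0.993.

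The 4 interferon-stimulated genes of smallest p are given with and without the female hearts. Epsti1, an interferon-induced gene of epithelial and stromal cells, was at 3.43, 3.21, 2.54 and 2.88 CPM in null and 5.26, 5.46, 4.11, 4.58, 3.95 and 4.2 in +/+ hearts. It is the 1 listed member whose groups did not overlap. Its log2 fold change was -0.85 ± 0.25 over all hearts, -0.64 ± 0.33 in males alone and -0.53 ± 0.21 in F/F hearts (edgeR adjusted p = 0.993 in F/+). Parp9, a partner of the interferon-induced ligase DTX3L, was at 10.9, 9.06, 8.31 and 8.11 CPM in null and 13.9, 14.1, 13.8, 13.7, 11.9 and 9.17 in +/+ hearts, and only +/+ heart 6 fell among the null values. Its log2 fold change was -0.60 ± 0.21, and -0.61 ± 0.24 in males alone. Oas3, which makes the activator of RNase L, had 1 of 4 null hearts above 0 (0.0457 CPM) and 0.0427 to 0.454 CPM in +/+ hearts, so that its log2 fold change of -3.81 ± 1.23 (-2.76 ± 1.55 in males alone) rests on few reads. Mx1, a dynamin-like antiviral GTPase, had -1.85 ± 0.63, and -1.40 ± 0.66 in males alone.

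**Figure D3:**
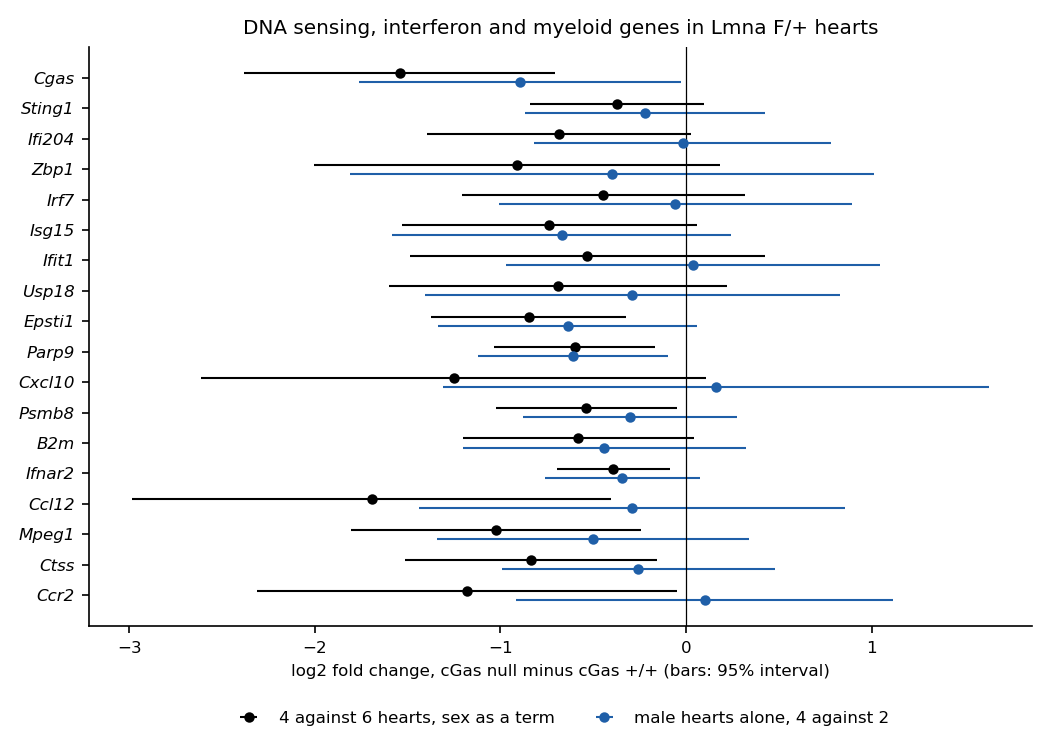
Log2 fold change with its 95% interval for 18 DNA sensing, interferon and myeloid genes in F/+ hearts, from the fit of all libraries with sex as a term (black, 4 against 6 hearts) and from male libraries alone (blue, 4 against 2). The genes were picked for display, and many are the members of smallest p in their lists. Black points all lie below 0, and the blue points of Ifit1, Cxcl10 and Ccr2 lie above 0. In the full lists and the fit of all libraries, 9 of 27 DNA sensing genes lay above 0. So did 5 of 57 interferon-stimulated genes and 4 of 27 macrophage markers. None of the 18 passed the adjustment over all genes.

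No gene of antigen presentation passed. For MHC class I and the immunoproteasome 17 of 21 tested members lay below 0 (median -0.26, and -0.12 in males alone), and 0 were called. Psmb8, an immunoproteasome subunit, had -0.54 ± 0.24, and -0.30 ± 0.27 in males alone. B2m, the light chain of class I molecules, was at 641, 309, 293 and 304 CPM in null and 635, 856, 413, 536, 454 and 378 in +/+ hearts, with null heart 1 alone inside the +/+ range. For MHC class II 8 of 9 lay below 0 (median -0.68, and -0.21 in males alone), with Ciita, the class II transactivator, at -0.99 ± 0.43, and -0.39 ± 0.42 in males alone. The 17 interferon receptor and Jak-Stat genes had a median of -0.07. Among them Ifnar2, a chain of the type I receptor, had -0.39 ± 0.15 (edgeR adjusted p = 0.993), with 6.78 to 9 CPM in null and 7.76 to 10.1 in +/+ hearts.

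Most chemokines and macrophage markers had fold changes below 0 in the fit of all hearts, which was not so in males alone. Of 28 tested cytokines and chemokines 22 lay below 0 (median -0.70), 5 had an unadjusted p under 0.05 on that side (2.07% of all genes did) and 0 were called, while 12 of 28 lay below 0 in males alone (median 0.12). Cxcl2, a neutrophil attractant, was at 0.183, 0.153, 0.172 and 0.111 CPM in null and 0.689, 0.213, 0.378, 0.578, 0.210 and 1.07 in +/+ hearts, without overlap, at a level of few reads (log2 fold change -2.47 ± 0.64, edgeR adjusted p = 0.993). The monocyte chemokines Ccl12 and Ccl7 had -1.69 ± 0.62 and -1.11 ± 0.43, and -0.29 ± 0.54 and -0.19 ± 0.32 in males alone. Of 27 macrophage and monocyte markers 23 lay below 0 (median -0.37), against 12 of 27 in males alone (median 0.05). Without the sex term, the fit of all 20 libraries gave medians of -0.29 for cytokines and chemokines, -0.08 for macrophage markers and -0.36 for interferon-stimulated genes. Neutrophil and mast cell markers had 6 of 9 above 0 (median 0.21, 0.55 in males alone and -0.49 without the sex term). In these bulk libraries fewer cells of a type and less RNA per cell cannot be told apart.

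Among the macrophage markers, Mpeg1 (perforin-2) was at 2.65, 3.33, 2.15 and 2.95 CPM in null and 4.08, 4.86, 3.78, 4.79, 1.93 and 3.56 in +/+ hearts, where heart 5 was the lowest of all 10. Its log2 fold change was -1.02 ± 0.38, and -0.50 ± 0.40 in males alone. Ctss, the lysosomal protease cathepsin S, had -0.84 ± 0.33, and -0.26 ± 0.35 in males alone. The Fc receptor gene Fcgr3 had -0.70 ± 0.29 and the monocyte chemokine receptor gene Ccr2 -1.18 ± 0.55, with 0.10 ± 0.48 for Ccr2 in males alone. Of 5 tested B and plasma cell markers 4 lay below 0 (median -0.23) in the fit of all hearts and 2 in males alone (median 0.13). Ebf1, Cd79b and Ighm had 0.30, -0.23 and -0.22. Jchain, which joins polymeric immunoglobulins, was at 0.229, 0.229, 0.0862 and 0.406 CPM in null and 0.738, 2.82, 0.473, 2.39, 0.924 and 4.84 in +/+ hearts. The groups did not overlap, with the highest values in 3 female hearts (-3.27 ± 1.11, and -1.31 ± 0.93 in males alone). Igkc, the kappa light chain, had -2.34 ± 0.89, and -0.69 ± 0.68 in males alone. None of the genes of this paragraph passed the edgeR adjustment over all genes. The B cell markers Ms4a1 and Cd79a did not pass the filter on low counts.

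**Figure D4:**
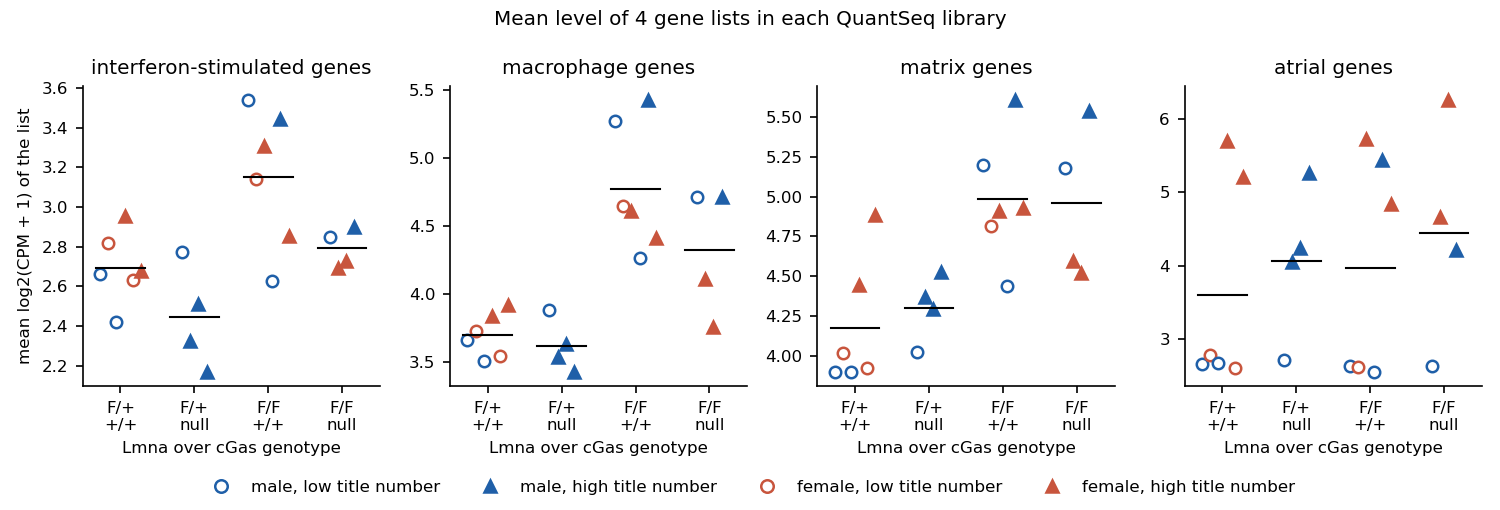
Mean log2(CPM + 1) of interferon-stimulated, macrophage, matrix and atrial genes in each QuantSeq library, by Lmna genotype (upper label) and cGas genotype (lower label), with symbols by sex and title number and bars at group means. In F/+ hearts the interferon-stimulated values of null hearts run from 2.17 to 2.77 and those of +/+ hearts from 2.42 to 2.95. The atrial values overlap between the cGas genotypes. They separate by title number, which the choice of split built in, because atrial transcripts prompted it.

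Muscle, matrix and vessel genes gave no call either. The 26 cardiomyocyte markers had a median log2 fold change of -0.02, and 25 of them were bounded within 2-fold. The 41 genes of the respiratory chain and citric acid cycle had -0.01, with 39 bounded within 2-fold. Both medians changed with the fit. In males alone 18 of 26 cardiomyocyte markers (median -0.21) and 34 of 41 respiratory genes (-0.18) lay below 0. With the title-number range as a term 26 of 26 (0.20) and 37 of 41 (0.20) lay above 0. Nppb, the gene of B-type natriuretic peptide, a marker of strain on the ventricle, was at 16.7, 32.8, 71.9 and 31.8 CPM in null and 162, 101, 74.4, 76.3, 17.5 and 42.6 in +/+ hearts. The ranges overlapped through +/+ hearts 5 and 6, and the log2 fold change was -1.32 ± 0.48 (edgeR adjusted p = 0.993), and -1.63 ± 0.43 in males alone. The 41 matrix genes had a median of 0.05 in the fit of all hearts, but 40 of 41 lay above 0 in males alone (median 0.51, beside 0.03 for all genes there). In that comparison 3 of 4 null hearts and neither +/+ heart had a high title number, and with the range as a term 33 of 41 lay below 0 (median -0.31). Smooth muscle and pericyte genes had 11 of 14 above 0 (median 0.16) and endothelial genes 15 of 21 (median 0.22). In males alone 7 of 14 and 13 of 21 lay above 0 (medians 0.04 and 0.20). In low-number libraries the smooth muscle and pericyte median was -0.19. The genes named next are among the members of smallest p. Myh11, the smooth muscle myosin, had 1.16 ± 0.41 in F/+ hearts, 0.91 ± 0.48 in males alone and 1.23 ± 0.36 in F/F hearts. Mylk, its kinase, had 0.34 ± 0.14 in F/+ and 0.48 ± 0.12 in F/F hearts. Pecam1, an endothelial adhesion molecule, had 0.36 ± 0.16 and 0.33 ± 0.14. The atrial list had 13 of 13 tested members above 0 (median 0.97, and -0.09 with the range, which atrial transcripts prompted, as a term).

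**Figure D5:**
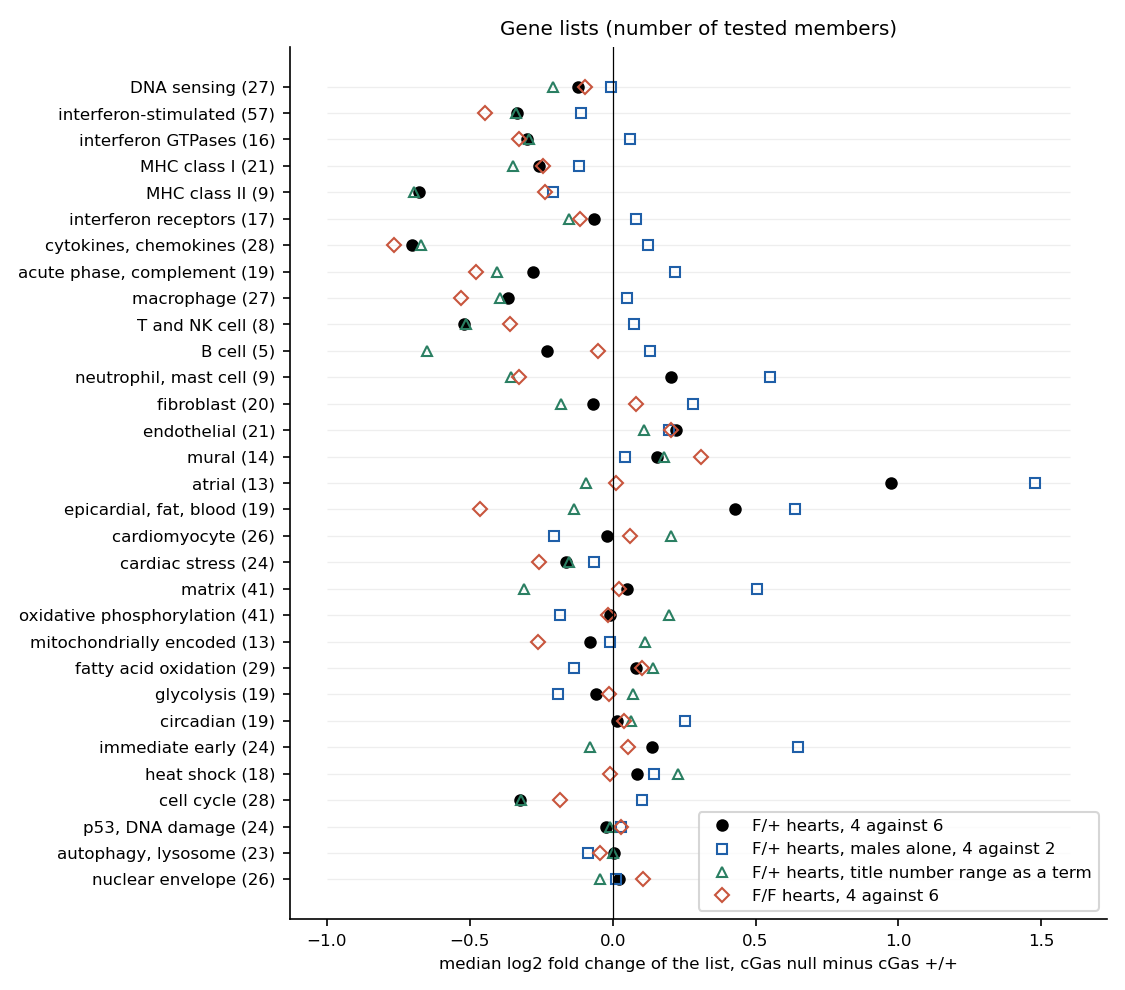
Median log2 fold change of 31 gene lists (tested members in brackets) in F/+ hearts from the fit of all libraries (black), males alone (blue) and with the title-number range as a term (green), and in F/F hearts (red). Black and blue points differ in sign for the cytokine, macrophage, acute phase and cell cycle lists among others. The atrial list lies near 0 once the range, a split that atrial transcripts prompted, is in the fit.

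The same contrast in F/F hearts also gave 0 calls (0%), with 850 genes (5.74%) at an unadjusted p under 0.05, 2.9% higher and 2.84% lower, and 49.7% of all genes below 0. Its groups did not overlap for 0.655% of genes on the higher and 0.412% on the lower side. There Cgas was at 0.609 to 1.2 CPM in null and 1.97 to 3.79 in +/+ hearts (log2 fold change -1.71 ± 0.33, edgeR adjusted p = 0.26). Interferon-stimulated genes had a median of -0.45 with 57 of 57 below 0, and 21 at an unadjusted p under 0.05. Isg15 had -0.97 ± 0.34 in F/F and -0.74 ± 0.38 in F/+ hearts, Ifit1 -1.25 ± 0.40 and -0.53 ± 0.46, and Irf7 -0.87 ± 0.31 and -0.45 ± 0.37. In males and females the F/F groups were balanced, 2 and 2 against 3 and 3. By title number they were not, with 3 of 4 null and 3 of 6 +/+ F/F hearts in the high range. The test of the difference between the 2 cGas effects called 0 genes, and the unadjusted edgeR p was 0.651 for Isg15, 0.251 for Ifit1 and 0.754 for Cgas. The 2 contrasts share no library, but they share the estimate of the sex term.

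Restricting the fit to the 11 libraries of high title number, a choice made after seeing the data, gave 161 of 15229 genes (1.06%) in F/+ hearts, 150 lower (0.985%) and 11 higher, by edgeR adjusted p. They included 14 of 27 macrophage markers, 13 of 41 matrix genes, 9 of 28 cytokines and chemokines and 4 of 58 interferon-stimulated genes, all lower. Ccr2 had -3.26 (adjusted p = 0.00162), Mpeg1 -2.23 (adjusted p = 0.00461) and Cgas -2.89 (adjusted p = 0.0161). In this subset the 3 null F/+ hearts are male and the 2 +/+ ones female, so that the sex term comes from the F/F hearts alone. Without the sex term the same libraries gave 0 genes (0%), and the medians were -0.59 for interferon-stimulated and -0.37 for macrophage genes, against -1.03 and -1.24 with it. Over both Lmna genotypes the same subset gave 502 genes (3.3%) with the sex term and 1 (0.00657%) without it. Sex and cGas cannot be told apart within these 5 F/+ hearts. The 9 libraries of low number gave 3 genes, with 1 null heart against 4.

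Genes near Cgas were described by their position. Gene order came from GENCODE M21 on GRCm38, which is not the build of the count table (mm39), and 14783 of the tested genes matched it by identifier. Chromosome 9 held 846 of them, Cgas included. Of these, 7 (0.827%) did not overlap between the F/+ groups, beside 0.785% over all matched genes. An unadjusted edgeR p under 0.05 was found for 43 (5.08%), beside 4.17%. Cgas itself is 1 of the 7 and 1 of the 43. Among the 50 tested genes nearest to Cgas, 6 had an unadjusted p under 0.05, 1 did not overlap and 0 were called. The closest tested neighbours, Gm8093 and Mto1, had log2 fold changes of -1.59 ± 0.73 and -0.14 ± 0.22, and Eef1a1, the translation elongation factor gene next to Mto1, had -0.50 ± 0.23. Jaml and Gm32171 lie on the same chromosome, 266 and 356 tested genes away from Cgas.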

How the data were processed

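Messenger RNA 3′ ends of 20 adult mouse hearts were counted per gene. The submitters' processing notes name STAR 2.7.9 and the mm39 build. The authors deposited raw counts per gene and, in a second table, CPM (counts scaled to a common library size) for these libraries. The deposited CPM differed from the scaled counts by at most 4.66e-10. The deposited TPM of the other libraries was not used here. No source used here names the counting tool, annotation or strand setting, and genes that overlap or have near-identical copies are therefore uncertain.

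Counts of all 20 libraries were fitted with edgeR 4.0.16 (R 4.3.3; quasi-likelihood test, TMM factors, a term per Lmna and cGas genotype and 1 for sex, Benjamini-Hochberg adjustment over all 14812 tested genes, threshold 0.05). All 4 genotypes shared 1 estimate of the spread. Genes passed the edgeR filter with a minimum count of 10 and a minimum total of 15. Normalised CPM is CPM after TMM scaling, and a list's level is the mean of log2(CPM + 1). Group differences in single genes were tested with two-sided exact permutation tests. Intervals on count ratios are exact at 95% and cover counting error only. Replicate numbers follow accession order. Replicate libraries differed beyond counting noise (lowest chi-square per degree of freedom 25.8 over 42 pairs).

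The named genes were Cgas, Lmna, any called gene, up to 4 members of smallest p per list, and 7 set interferon and sensing genes; others are said to be chosen after their values were seen. Of the set genes, 1 is not reported here. The groups, lists and tests were chosen with earlier results of these data known. Alternatives were limma 3.58.1, DESeq2 1.42.0, other factors and filters, subsets of libraries, and leaving out each library. The scripts were tested on simulated counts. Gene order came from GENCODE M21 and promoters from RefSeq, both on GRCm38, matched by identifier and by symbol.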

Additional observations from a re-analysis of the deposited data

Results flagged for a closer look

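Of 148 groups of 4 or 6 F/+ libraries examined for a single library far from the others, 9 had one by Dixon's criterion at its 95% limit, which chance gives in about 1 in 20 groups. In 6 of these 9 the library was null heart 1, the only F/+ null heart with a low title number. It stood highest among null hearts for B2m (641 CPM, the next 309), Fcgr3 (23.3, the next 12.7), Oas3 (0.0457, the others 0) and Gm32171 (0.137, the others 0), and for the mean level of respiratory chain genes (9.30, the next 8.85). It stood lowest for clock genes (2.71, the next 3.15). For Oas3 and Gm32171, where the other null hearts are at 0, any value above 0 meets the criterion. These values rest on 1 and 3 counts. The groups reuse the same F/+ libraries, so the flags are not independent of each other. Among +/+ hearts, heart 1 was highest for Sting1 (4.13 CPM, the next 2.72), heart 4 for Oas3 (0.454, the next 0.129) and heart 6 for acute phase and complement genes (4.2, the next 3.51). The part of the title number in these values was not tested.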

How the results depend on the processing

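No paired analysis was possible because the replicate numbers only follow accession order. In F/+ hearts the count of 0 called genes became 93 without the filter on low counts, 1 in male libraries alone, 3 with DESeq2, 3 in low-number and 161 in high-number libraries alone. In F/F hearts it became 93 without the filter, 2 with F/F libraries alone and 3 with DESeq2, and for the difference between the Lmna genotypes 23 without the filter. Over both Lmna genotypes, 3 became 280 without the filter, 1 in males, 0 with limma-voom, 0 with limma-trend, 34 with DESeq2, 0 in low-number and 502 in high-number libraries, 1 in the latter without the sex term, and 1 to 7 with single libraries left out. The difference in Cgas level was -0.475 CPM in males (exact permutation p = 0.133) and -1 to -0.695 with single hearts left out.

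Of 42 genes followed, 13 changed sign in 31 of 1464 values. Lmna was at -0.003204 without scaling factors, -0.12 with the atrial score, -0.19 with the range term, -0.079 in low-number and -0.53 in high-number libraries, and from -0.094 to 0.084 with single libraries left out, below 0 in 8 of these 20 fits. In low-number libraries Irf7 was 0.39, Ifit1 0.47, Zbp1 0.30, B2m 0.096, Usp18 0.45, Fcgr3 0.060, Ccr2 0.14, Myh11 -0.74 and Nr4a1 -0.66. In males Ifit1 was 0.037, Cxcl10 0.16 and Ccr2 0.099, and with F/+ libraries alone 0.036, 0.16 and 0.10. Both fits set the same 4 null hearts against the same 2 male +/+ hearts, so their closeness is no second check. In high-number libraries Sdhd was 0.45, and without the sex term Sdhd was 0.037 and Gsn -0.097. The cause of these changes was not tested. Low counts limit precision: 12.5% of genes below 1 CPM were bounded within 2-fold.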

Other observations

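Immediate early genes, which respond within minutes to handling and stress, had no member called in F/+ hearts, with 15 of 24 above 0 (median log2 fold change 0.14). In males alone 24 of 24 lay above 0 (median 0.65), and with the title-number range as a term the median was -0.08. Nr4a1, a nuclear receptor of this class, was at 1.28, 12.7, 4.57 and 10.5 CPM in null and 2.41, 1.45, 1.04, 1.86, 2.27 and 2.79 in +/+ hearts, so that null hearts 2, 3 and 4, those with high title numbers, exceeded all others. Klf2, a flow-responsive factor of endothelium, had 0.71 ± 0.28.

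Proliferation genes had 25 of 28 below 0 (median -0.33), against 12 of 28 in males alone (median 0.10), and 0 were called. In the fit of all hearts, genes of fatty acid oxidation (median 0.08), glycolysis (-0.06), the clock (0.01), autophagy and lysosomes (0.003) and the nuclear lamina (0.02) had medians within 0.1 of 0. In males alone the medians were, in the same order, -0.14, -0.19, 0.25, -0.08 and 0.01. There 23 of 29 fatty acid oxidation genes lay below 0 and 16 of 19 clock genes above. Among glycolysis genes Pfkfb2, a regulator of phosphofructokinase, had -0.89 ± 0.29, and 3 of 19 members had an unadjusted edgeR p under 0.05, all below 0, beside 2.07% of all tested genes lower at that p. Gsn, the actin-severing gelsolin, was at 438 to 548 CPM in null and 248 to 574 in +/+ hearts (0.61 ± 0.24, and 0 of these genes passed the edgeR adjustment).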
